A study of Rattus norvegicus with 16 samples.

Results

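The polyol pathway and organic osmolyte genes were followed by name in the kidney transcriptome of diabetic nephropathy (DN) rats given sinomenine (SIN). The members are 8 named genes, Akr1b1, Sord, Khk, Miox, Slc5a3, Slc6a6, Slc6a12 and Nfat5, taken as the rows of the deposited expression table that carry these symbols. Of the 8 members, 7 have a row among the 35849 genes of the table, and no row carries the name Slc5a3. Kidney RNA of 16 male Sprague Dawley rats, 6 to 8 weeks old at the start, was sequenced after poly(A) selection, with 4 rats in a normal group, 4 in a DN group and 4 at each SIN dose, 20 and 40 mg/kg. DN and SIN rats had received streptozotocin (STZ) at 45 mg/kg, were kept in the study if blood glucose passed 16.7 mmol/L, and ate a high-glucose and high-fat diet. Normal rats received citrate buffer in place of STZ and a normal diet, so that STZ and diet differ together between the normal group and the others. The SIN groups were given the drug, an alkaloid from a Chinese herbal medicine, each day by gavage for 8 weeks, and the DN group was given vehicle.

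In the polyol pathway, aldose reductase turns glucose into sorbitol and sorbitol dehydrogenase turns sorbitol into fructose, which ketohexokinase then phosphorylates. Sorbitol is also an organic osmolyte, as are myo-inositol, taurine and betaine, which cells of the renal medulla hold to balance the salt and urea around them. The transcription factor NFAT5, also called TonEBP, drives aldose reductase and the osmolyte carriers when tonicity rises, and myo-inositol oxygenase, an enzyme of the proximal tubule, breaks inositol down.

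Promoter sequences of the members were looked up in a set of rat promoters taken from RefSeq, build GRCr8. That set held 6 of the 8 by symbol and had no entry for Akr1b1 or Nfat5. The 250 bases before the start are printed for Miox and Slc6a12, since Miox was among the members that moved with the proximal tubule markers and Slc6a12 moved with the collecting duct and inner medulla markers. Both lie on the plus strand, Miox at chr7:122284410-122284659 and Slc6a12 at chr4:156257268-156257517, and capitals mark the motif matches.
Miox: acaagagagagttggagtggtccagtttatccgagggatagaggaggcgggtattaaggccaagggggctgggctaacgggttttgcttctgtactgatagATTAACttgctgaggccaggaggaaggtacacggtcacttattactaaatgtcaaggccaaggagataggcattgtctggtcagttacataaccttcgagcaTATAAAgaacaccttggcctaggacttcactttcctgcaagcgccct
Slc6a12: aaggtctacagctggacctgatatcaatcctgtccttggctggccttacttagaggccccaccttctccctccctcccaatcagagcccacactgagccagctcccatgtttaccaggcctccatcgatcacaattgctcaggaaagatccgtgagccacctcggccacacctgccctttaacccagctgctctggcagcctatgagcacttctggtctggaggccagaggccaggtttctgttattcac
The letters searched, on both strands, were TGGAAA, the core that NFAT5 binds, GTTAAT, a core of the site of the kidney and liver factor HNF1, and TATAAA, the TATA box. Among 33469 rat promoters of this length, 19.7% held TGGAAA, 6.45% held GTTAAT and 12.9% held TATAAA. The Miox window held GTTAAT on the minus strand, printed as ATTAAC, with its first base at -149 from the start, and TATAAA at -47. The Slc6a12 window held none of the 3, and neither did those of Sord, Khk and Slc5a3. The Slc6a6 window held TGGAAA at -156 and TATAAA at -79. A match is a stretch of letters and not a bound site. The first entry of each symbol was searched, and sequence beyond the 250 bases was not. A window without a match therefore does not show that the gene lacks a site.

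Totals were 19616312 to 25217030 estimated counts per rat, and expression is given as CPM, the count relative to the library total, scaled by TMM over all rats. The labelled tissue was matched by its markers, since the 6 proximal tubule markers summed to 6060 to 11525 CPM in every rat. A pair of rats stood apart in the urothelial markers, with sums of 55.2 CPM in normal replicate 1 and 118 CPM in DN replicate 3 against at most 18.4 CPM in the other rats. DN replicate 3 also stood apart in the muscle and fat markers, with a sum of 372 CPM against at most 92.1 CPM elsewhere. The serial numbers of the libraries run on within each group, so that library batch and condition cannot be told apart. Nothing in the labels ties rats of different groups together.

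Corrected for transcript length, the members covered a wide range of levels. Over the 16 rats Miox averaged 958 CPM per kb, Sord 421, Khk 365 and Akr1b1 125 CPM per kb, while the carrier Slc6a6 was at 79.7, Slc6a12 at 9.18 and Nfat5 at 5.28 CPM per kb. The order of the last pair was turned in the normal group, with Slc6a12 at 4.75 and Nfat5 at 6.17 CPM per kb. On this scale the enzymes acting on sorbitol, fructose and inositol were above the carriers and the tonicity factor.

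Akr1b1 (ENSRNOG00000009513) encodes aldose reductase, the first enzyme of the polyol pathway. In replicates 1 to 4 it was at 27.6, 167, 227 and 55.2 CPM in the normal group and at 156, 106, 133 and 19.4 CPM in the DN group. It was at 92.4, 381, 106 and 174 CPM at 20 mg/kg of SIN and at 63.0, 348, 252 and 369 CPM at 40 mg/kg. Every group held at least 1 low and 1 high rat, and the groups overlapped in each comparison. The means were 119 ± 94.0 CPM (SD, n = 4) in the normal group, 104 ± 59.8 among DN rats, 188 ± 133 at 20 mg/kg and 258 ± 139.7 at 40 mg/kg. The log2 fold change of Akr1b1 was -0.20 in the DN group over the normal group (± 0.69 standard error, SE, adjusted p = 0.857 after Benjamini-Hochberg in the quasi-likelihood test of edgeR). Its sign rested on single rats, since it was 0.32 without normal replicate 3 and 0.14 without DN replicate 4. Against the DN group it was 0.86 at 20 mg/kg and 1.32 at 40 mg/kg (± 0.63 SE, edgeR quasi-likelihood adjusted p = 0.313), neither of which passed. At 20 mg/kg it was 0.25 without SIN (20 mg/kg) replicate 2 and 0.51 without DN replicate 4.

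Sord (ENSRNOG00000017291), which encodes sorbitol dehydrogenase, was the only member to pass the test. It was at 809, 732, 523 and 670.4 CPM in the normal rats and at 824, 929, 1091 and 1104 CPM in the DN rats. The SIN (20 mg/kg) rats were at 920.1, 1049, 1024 and 882 CPM, and the SIN (40 mg/kg) rats at 1184, 926, 940.5 and 804 CPM. All DN rats and all SIN (20 mg/kg) rats exceeded all normal rats, while SIN (40 mg/kg) replicate 4 lay just below the highest normal rat. Sord rose from 683 ± 121 CPM (SD, n = 4) in the normal group to 987 ± 135 CPM (SD, n = 4) with DN. The log2 difference was 0.54 with a standard error of 0.16, and edgeR's quasi-likelihood test gave an adjusted p = 0.0399. The adjusted p was 0.0945 without normal replicate 3, 0.106 without normal replicate 4, 0.0718 without DN replicate 2, 0.0819 without DN replicate 3 and 0.0737 without DN replicate 4 in edgeR's test, so that the call needed each of these rats. The log2 fold change itself stayed between 0.43 and 0.63 whichever rat was left out. Over all alternatives edgeR and DESeq2 gave an adjusted p of 0.00582 to 0.107 for Sord, and edgeR gave 0.0791 without both rats with raised urothelial markers.

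In the treated groups Sord stayed near its DN level, with 969 ± 80.4 CPM (SD, n = 4) at 20 mg/kg and 964 ± 159 CPM (SD, n = 4) at 40 mg/kg. Set against DN, Sord was at a log2 fold change of -0.03 at both doses, with a standard error of 0.13 at 20 mg/kg and 0.14 at 40 mg/kg. Against the normal group it was 0.50 at 20 mg/kg (adjusted p = 0.0645 by edgeR's test) and 0.49 at 40 mg/kg (adjusted p = 0.103 by edgeR's test). The call at 20 mg/kg was made without normal replicate 1, where the adjusted p was 0.0456 in edgeR's test, in a range of 0.00757 to 0.172 over the alternatives.

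Khk (ENSRNOG00000008047) encodes ketohexokinase, which takes up the fructose that sorbitol dehydrogenase makes. It was at 605, 644, 509 and 525 CPM in the normal rats and at 439, 575, 524 and 749 CPM in the DN rats. It was at 426, 482, 526 and 506 CPM at 20 mg/kg and at 525, 468, 453 and 391 CPM at 40 mg/kg. All groups overlapped, with DN replicate 4 as the highest rat. The means of Khk in the DN and normal groups lay close, at 572 ± 131 and 571 ± 64.4 CPM (SD, n = 4), with a fitted log2 difference of 0.01 and a standard error of 0.16. Its sign turned when DN replicate 4 was left out, to -0.16, without normal replicate 3, to -0.04, and without normal replicate 4, to -0.03. Against the DN group it was -0.24 at 20 mg/kg and -0.31 at 40 mg/kg (adjusted p = 0.347 by edgeR's test for the second). Without DN replicate 4 these were -0.084 and -0.16.

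Miox (ENSRNOG00000008694), the inositol oxygenase, had the highest level of the members in CPM and in CPM per kb. It was at 2634, 2451, 2062 and 2803 CPM in the normal rats and at 2326, 2700.4, 3054 and 4241 CPM in the DN rats. It was at 1915, 2533, 2334 and 2255 CPM at 20 mg/kg and at 2889, 2290.2, 2636 and 2041 CPM at 40 mg/kg. DN replicate 4, the highest of all rats for Khk and the lowest for Akr1b1 and Nfat5, was the highest here too, and all groups overlapped. The log2 fold change of Miox was 0.31 in the DN group over the normal group (adjusted p = 0.256 by edgeR's test), and 0.12 without DN replicate 4. At 20 mg/kg over DN it was -0.45 (± 0.19 SE, unadjusted p = 0.0350, edgeR quasi-likelihood adjusted p = 0.304), and -0.26 without DN replicate 4. At 40 mg/kg it was -0.32 (adjusted p = 0.411 by edgeR's test), and -0.13 without the same rat.

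**Figure D1:**
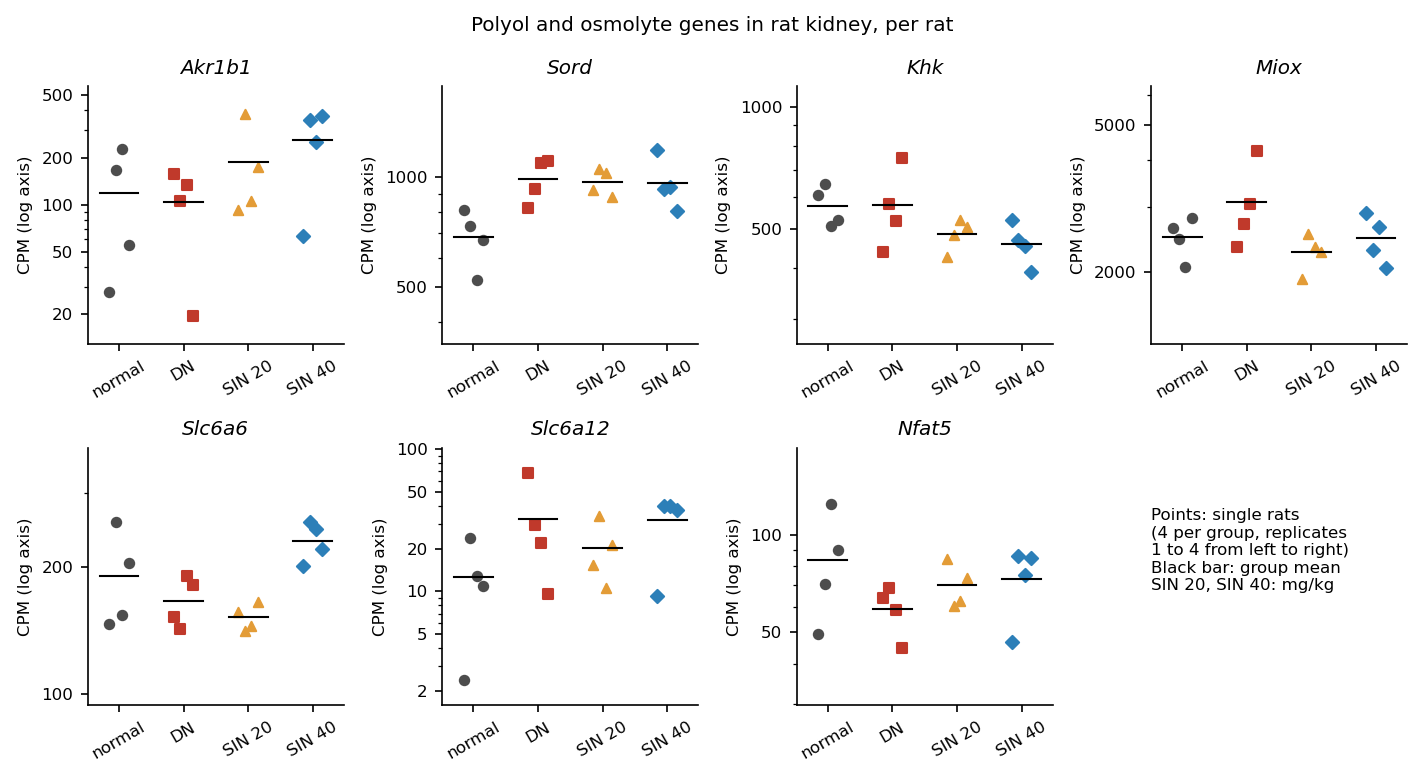
Expression of the 7 members with a row, in CPM on a log axis, for each of the 16 rats by group; points are single rats in replicate order and black bars are group means. Akr1b1 and Slc6a12 spread widely within every group, Sord lies lowest in the normal group, and the 4 SIN (40 mg/kg) rats lie above every DN and SIN (20 mg/kg) rat for Slc6a6.

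Slc6a6 (ENSRNOG00000009019) encodes the taurine carrier. It was at 146, 256, 154 and 204 CPM in the normal rats and at 152, 143, 190.0 and 181 CPM in the DN rats. It was at 157, 141, 145 and 165 CPM at 20 mg/kg and at 201, 256, 247 and 220.5 CPM at 40 mg/kg. All 4 SIN (40 mg/kg) rats exceeded each DN and each SIN (20 mg/kg) rat, while the normal rats spread over the whole range. The group means were 190.2 ± 51.1 CPM (SD, n = 4) for normal rats, 167 ± 22.5 for DN rats, 152 ± 11.0 at 20 mg/kg and 231 ± 24.8 at 40 mg/kg. The log2 fold change of Slc6a6 at 40 mg/kg over the DN group was 0.47 (± 0.12 SE, unadjusted p = 0.00313, edgeR quasi-likelihood adjusted p = 0.187). Between the doses it was 0.60 (± 0.10 SE, unadjusted p = 0.000153, edgeR quasi-likelihood adjusted p = 0.797). Both differences passed with DESeq2, at an adjusted p = 0.0325 against the DN group and 0.000241 between the doses. Over all alternatives, the adjusted p from edgeR and DESeq2 ran from 0.0325 to 0.392 against the DN group and from 0.000241 to 1 between the doses.

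Slc6a12 (ENSRNOG00000013547) encodes the betaine carrier of the medulla, BGT1. It was at 2.37, 24.0, 12.9 and 11.0 CPM in the normal rats and at 68.7, 29.4, 22.1 and 9.67 CPM in the DN rats. It was at 15.3, 34.2, 10.6 and 21.2 CPM at 20 mg/kg and at 9.29, 40.1, 39.7 and 37.6 CPM at 40 mg/kg. Normal replicate 1 was far below all others, DN replicate 1 far above, and all groups overlapped. The means were 12.5 ± 8.87 CPM (SD, n = 4) for normal rats, 32.5 ± 25.5 for DN rats, 20.3 ± 10.2 at 20 mg/kg and 31.7 ± 15.0 at 40 mg/kg. The log2 fold change in the DN group over the normal group was 1.38 (± 0.66 SE, edgeR quasi-likelihood adjusted p = 0.16), and 0.71 without DN replicate 1. At 20 mg/kg over DN it was -0.68 (± 0.53 SE, edgeR quasi-likelihood adjusted p = 0.526), and -0.01 without DN replicate 1. At 40 mg/kg it was 1.34 over the normal group (adjusted p = 0.209 by edgeR's test) and -0.03 over the DN group, where it became 0.62 without DN replicate 1 and 0.27 without SIN (40 mg/kg) replicate 1.

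Nfat5 (ENSRNOG00000011879), the tonicity factor, was at 49.3, 70.8, 124 and 90.1 CPM in the normal rats and at 64.0, 68.7, 58.9 and 44.7 CPM in the DN rats. It was at 84.1, 60.5, 62.4 and 73.7 CPM at 20 mg/kg and at 46.7, 86.5, 75.3 and 84.8 CPM at 40 mg/kg. The groups overlapped throughout, and normal replicate 3 was the highest rat. The log2 fold change in the DN group over the normal group was -0.50 (± 0.25 SE, edgeR quasi-likelihood adjusted p = 0.176), and -0.24 without normal replicate 3. It was 0.24 at 20 mg/kg and 0.31 at 40 mg/kg over the DN group, with adjusted p of 0.433 and 0.444 in edgeR's test. Without DN replicate 4 these were 0.13 and 0.20, and the first was 0.14 without SIN (20 mg/kg) replicate 1.

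Slc5a3, the myo-inositol carrier, could not be read. RefSeq places it inside the span of Mrps6, a gene for a mitochondrial ribosomal protein, and the table has a row for Mrps6 (ENSRNOG00000059381). That row, chosen after its values were seen, was at 69.6 to 238 CPM, and how many of its reads come from the carrier was not tested.

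**Figure D2:**
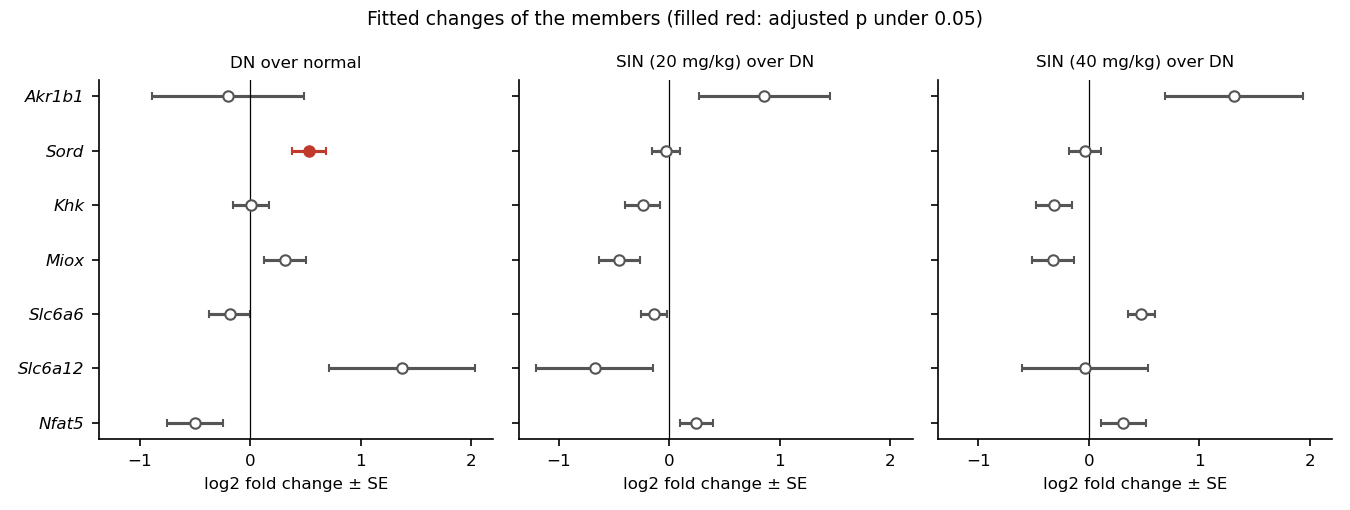
Fitted log2 fold changes (x axis) of the 7 members for DN over normal and for each SIN group over DN, with bars of 1 standard error; filled red marks an adjusted p under 0.05. Sord in DN over normal is the single filled point, and the bars of Akr1b1 and Slc6a12 are the longest.

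Counted over the members, 1 of 7 passed an adjusted p under 0.05 in the DN group over the normal group, against 19.5% of the 15775 genes tested. When a log2 change of 1 or more was required too, 0 of 7 members and 3.8% of all genes passed. The members' groups did not overlap for 1 of 7, against 24.3% of all genes, and 1 of 7 passed an unadjusted p under 0.05, against 36.9%, so that none of these shares stood above the background. The median log2 fold change of the members was 0.01 and that of all genes was 0.00.

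With 20 mg/kg SIN set against DN, 0 of 7 members were called, beside 0% of the 15724 genes tested by edgeR's quasi-likelihood test. At an unadjusted p under 0.05 it was 1 of 7, against 15.4% of all genes, while DESeq2 called 221 genes and edgeR's exact test 89, with 0 members among them. Groups that did not overlap were found for 0 of 7 members and 8.99% of all genes. With 40 mg/kg SIN set against DN, 0 of 7 members and 0% of 15530 genes were called, and at an unadjusted p under 0.05 it was 1 of 7 and 17.1%. Here DESeq2 called 436 genes, 1 of them a member, and the exact test 158, none of them a member. The groups did not overlap for 1 of 7 members, Slc6a6, against 10.4% of all genes.

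Between the doses 0 of 7 members were called, against 0.00639% of 15657 genes, which is 1 gene. The unadjusted threshold was passed by 1 of 7 members and 4.98% of all genes, and 1 of 7 members and 3.31% of genes had groups that did not overlap, the member being Slc6a6 both times. DESeq2 called 17 genes and edgeR's exact test 6, each with Slc6a6 among them. Against the normal group, 0 of 7 members were called at 20 mg/kg, beside 6.36% of genes, and 0 of 7 at 40 mg/kg, beside 5.97%. At an unadjusted p under 0.05 the members were 1 of 7 and 3 of 7, beside 20.8% and 22.9% of genes, and groups that did not overlap were found for 1 of 7 and 0 of 7, beside 13.7% and 14.3%. The 3 members past the unadjusted threshold at 40 mg/kg were Sord, Khk and Slc6a12. The DN rats are shared by the comparisons of both doses with DN, and the normal rats by those with normal, so these counts are not independent. In the order of the 4 group means, neighbouring groups overlapped for each of the 7 members.

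The members differed in how much they varied between rats of the same group. The within-group SD of log2 CPM was 1.25 for Akr1b1 and 1.10 for Slc6a12, against a median of 0.22 over 13357 genes with a mean of at least 1 CPM. That put Akr1b1 at the percentile 98.8 and Slc6a12 at 98.4 of these genes. Nfat5 was at the percentile 80.9, and the others were between 46.7 and 57.8. From the lowest to the highest rat Akr1b1 ran over 19.6-fold and Slc6a12 over 28.9-fold, while the other 5 members ran over 1.82-fold to 2.78-fold.

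From rat to rat some members moved together and others in opposite directions. With the group means taken off, Pearson's r over the 16 rats was 0.88 between Akr1b1 and Slc6a12, 0.80 between Khk and Miox, 0.77 between Sord and Miox and 0.70 between Sord and Khk. It was -0.63 between Akr1b1 and Miox and -0.89 between Sord and Nfat5. These are descriptions of 16 libraries whose values share the same totals, so that a gene group that takes up more of a library lowers the rest.

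The marker levels moved with the same rats. The 9 collecting duct and inner medulla markers (10 rows) summed to 366 to 1099 CPM in normal rats, 754 to 2334 in DN rats, 1107 to 2000.0 at 20 mg/kg and 1126 to 2321 at 40 mg/kg, and none of the 10 rows was at 0 in any rat. Within groups the log2 of this sum had r = 0.90 with Slc6a12 and 0.80 with Akr1b1 over the 16 rats. Slc14a2 (ENSRNOG00000056021), the urea carrier of the inner medulla, was at 1.16 CPM in normal replicate 1, 4.05 CPM in DN replicate 4 and 149 CPM in DN replicate 1. Those were the lowest rat for Slc6a12, the lowest for Akr1b1 and the highest for Slc6a12. They were picked as extremes, and the other row of Slc14a2 is not shown. Some rats ran otherwise for Akr1b1. Normal replicate 3 was at 227 CPM with a marker sum of 886 CPM, and DN replicate 2 at 106 CPM with a sum of 2244 CPM. All 10 rows of the collecting duct list had a log2 fold change above 0 in DN over normal, beside 7904 of 15775 genes. Their median was 0.95, and 0 were called, beside 19.5% of all genes. As a share of this marker sum, chosen after the values were seen, normal and DN rats overlapped for both members. Slc6a12 was at 0.648% to 2.18% in the normal rats and 1.28% to 2.94% in the DN rats. Akr1b1 was at 7.06% to 25.65% and 2.58% to 11.5%. In bulk RNA, fewer cells of a type and less RNA per cell cannot be told apart. The part of the collecting duct and medulla markers in the levels of Akr1b1 and Slc6a12 was not tested.

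**Figure D3:**
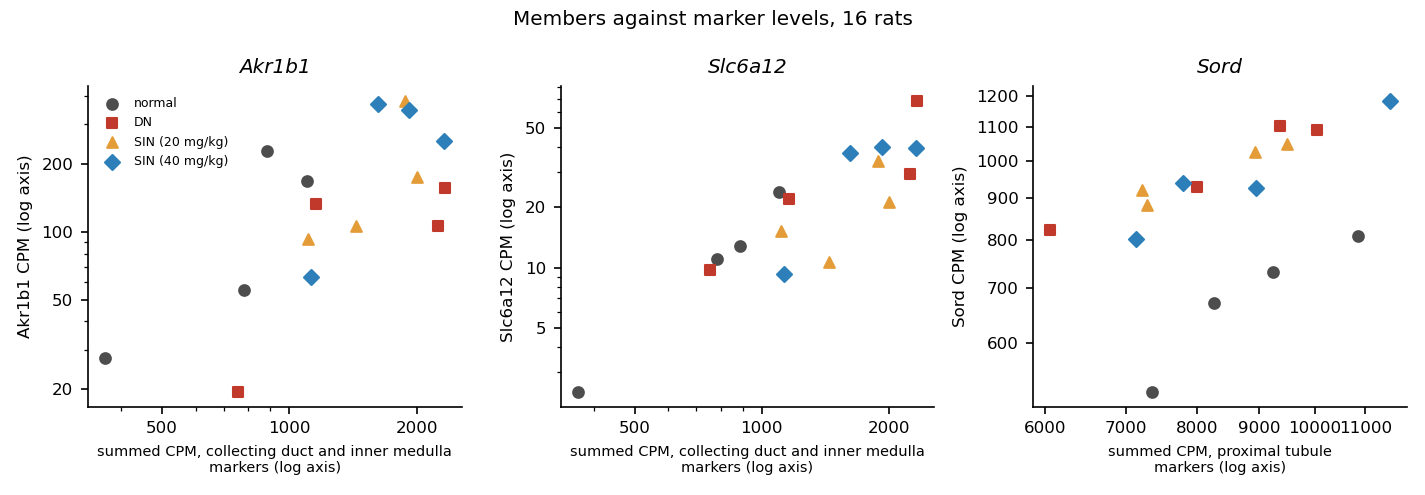
CPM of Akr1b1 and Slc6a12 against the summed CPM of the collecting duct and inner medulla markers, and of Sord against the summed CPM of the proximal tubule markers, both axes log, 1 point per rat, coloured by group. Akr1b1 and Slc6a12 run from low to high with the marker sum, and for Sord the 4 normal rats lie below all the others at a like marker sum.

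The proximal tubule markers gave the other side. Their sum was 7342 to 10851 CPM in normal rats, 6060 to 10043 in DN rats, 7213 to 9485 at 20 mg/kg and 7128 to 11525 at 40 mg/kg, so that the groups overlapped. Within groups its r was 0.93 with Sord, 0.72 with Miox and 0.70 with Khk, and -0.78 with Nfat5. Sord was therefore also set against this sum in each rat, a measure chosen after the values were seen and given with no test. Sord was at 7.12% to 8.12% of the proximal tubule sum in the normal rats, 10.9% to 13.6% in the DN rats, 11.1% to 12.8% at 20 mg/kg and 10.3% to 12.1% at 40 mg/kg. Every STZ-treated rat was above every normal rat on this scale. In CPM, 24.3% of all genes had groups that did not overlap in DN over normal. How many would do so as a share of this marker sum was not counted. For Khk the same measure overlapped, at 5.58% to 6.98% in the normal rats and 5.22% to 8.00% in the DN rats, and so it did for Miox, at 24.3% to 33.9% and 30.4% to 45.3%. The thick ascending limb markers moved between the groups as well, with sums of 3413 to 4468 CPM in the normal group and 1880 to 3248 CPM in the DN group, and so did the intercalated cell markers, with 397 to 496 CPM and 299 to 383 CPM. At adjusted p under 0.05, 2 of 4 intercalated cell rows and 1 of 3 thick ascending limb rows fell, beside 1696 of 15775 genes. The part of either in the rise of Sord was not tested.

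Ratios of estimated counts within a rat do not depend on the library total. Of the 21 ratios between members, all looked at after the values were known and given with no test, 1 had groups that did not overlap between DN and normal. This was Sord over Khk, at 1.03 to 1.34 in the normal rats, 1.47 to 2.08 in the DN rats, 1.74 to 2.18 at 20 mg/kg and 1.98 to 2.26 at 40 mg/kg. The mean ratio was 1.19 ± 0.140 (SD, n = 4) in the normal group and 1.76 ± 0.271 in the DN group. Akr1b1 over Slc6a12, the pair that moved together, was 5.03 to 17.7 in the normal rats, 2.01 to 6.02 in the DN rats, 6.04 to 11.2 at 20 mg/kg and 6.34 to 9.82 at 40 mg/kg. In this ratio each SIN group lay above the DN group, at 20 mg/kg by a narrow margin, and the normal rats overlapped with all. It was 1 of 2 ratios of the 21 without overlap at 20 mg/kg over DN, beside Sord over Miox, and 1 of 3 at 40 mg/kg over DN, beside Khk over Slc6a6 and Miox over Slc6a6. Sord over Miox was 0.260 to 0.357 in the DN rats and 0.391 to 0.481 at 20 mg/kg. How often groups lie apart in ratios of other gene pairs was not counted. For single genes it was 24.3% in DN over normal, 8.99% at 20 mg/kg over DN and 10.4% at 40 mg/kg over DN.

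**Figure D4:**
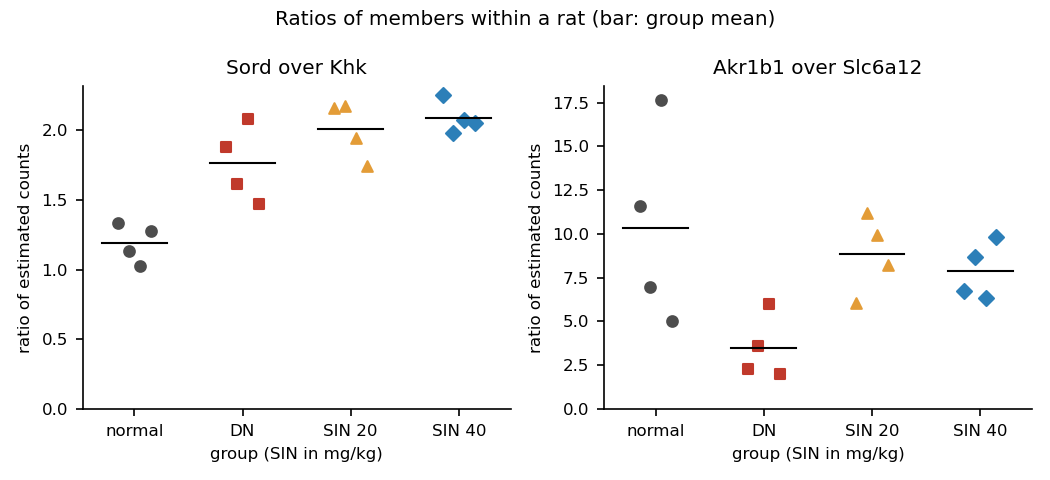
Ratio of estimated counts within each rat (y axis, from 0) for Sord over Khk and for Akr1b1 over Slc6a12, by group; points are single rats and bars are group means. The 4 normal rats have the lowest Sord over Khk ratios, and the 4 DN rats have Akr1b1 over Slc6a12 ratios of 2.01 to 6.02, below both SIN groups.

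The other genes of these pathways were read from a list of 42, of which 39 had a row, 40 rows in all since Slc14a2 has a pair of rows. In the DN group over the normal group 4 rows rose and 4 fell at an adjusted p under 0.05, with a median log2 fold change of 0.17 beside 0.00 over all genes. The 8 of 40 rows stand beside 19.5% of all genes. Akr1a1 and Hspa4l, named here among the 8, were picked after their values were seen. Of the 12 rows for polyol, fructose and glucuronate-xylulose steps 3 rose and 0 fell. Cryl1, which encodes the gulonate dehydrogenase, had the largest change of the 3, from 236 to 428 CPM, a log2 fold change of 0.86 (± 0.16 SE, edgeR quasi-likelihood adjusted p = 0.0109), with no overlap of the groups. Akr1a1, the aldehyde reductase that makes gulonate from the glucuronate that Miox releases, rose from 1529.5 to 2163 CPM, and Glyctk, the glycerate kinase, from 357 to 512 CPM.

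Among the 6 inositol genes 1 rose and 2 fell. Impa2 rose and Impa1 fell, although both encode inositol monophosphatases: Impa2 went from 81.5 to 113 CPM (adjusted p = 0.0428 by edgeR's test) and Impa1 from 98.5 to 73.9 CPM (adjusted p = 0.0201 by edgeR's test), with no overlap of the groups for either. Slc2a13, the proton-coupled inositol carrier, fell by 0.67 on the log2 scale (adjusted p = 0.0275 by edgeR's test). Of the 5 taurine genes 0 were called and of the 5 betaine genes 0. An unadjusted p under 0.05 was reached by 1 taurine and 2 betaine genes, beside 36.9% of all genes. Of the 4 glycerophosphocholine genes Gpcpd1, which breaks this osmolyte down, fell by 0.58 on the log2 scale (adjusted p = 0.0425 by edgeR's test). Of the 8 rows for targets of NFAT5, 1 fell, Hspa4l, the osmotic stress chaperone, by 0.57 on the log2 scale (adjusted p = 0.0479 by edgeR's test).

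In each SIN group over the DN group 0 of the 40 rows passed the adjusted threshold by edgeR's quasi-likelihood test, with 6 of 40 rows at an unadjusted p under 0.05 at 20 mg/kg and 4 of 40 at 40 mg/kg, beside 15.4% and 17.1% of all genes. These shares were no higher than the background. At 40 mg/kg all 8 rows for targets of NFAT5 had a log2 fold change above 0, with a median of 0.57 beside 0.01 for all genes, and 2 of the 8 passed the unadjusted threshold, beside 17.1% of all genes. Of all 15530 genes 7916 were above 0 in that comparison. Hspa4l was 1 of these, at 0.58 (adjusted p = 0.206 by edgeR's test), with no overlap of these groups. At 20 mg/kg 7 of the 8 rows were above 0, with a median of 0.28 beside -0.01 for all genes, of which 7698 of 15724 were above 0. Of the 8 rows, 3 are also collecting duct and inner medulla markers, Aqp2 and both rows of Slc14a2. The members that NFAT5 is known to drive are not in this list, and they did not all lie above 0: at 20 mg/kg over DN Akr1b1 was at 0.86, Slc6a6 at -0.14 and Slc6a12 at -0.68, and at 40 mg/kg they were at 1.32, 0.47 and -0.03. At 20 mg/kg over normal 1 of the 40 rows rose and 1 fell, beside 6.36% of all genes called. Bhmt, which uses betaine to methylate homocysteine, was higher, with 315 CPM against 172 CPM (log2 fold change 0.87, adjusted p = 0.00332 by edgeR's test). Its level was not particular to that dose. Bhmt was at 143 to 193 CPM in the normal rats, 209 to 536 in the DN rats without SIN and 176 to 419 at 40 mg/kg. Slc38a2, an amino acid carrier induced by tonicity, fell by 0.91 on the log2 scale at 20 mg/kg over normal (adjusted p = 0.0437 by edgeR's test). At 40 mg/kg over normal 0 of the 40 rows were called by edgeR's quasi-likelihood test.

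**Figure D5:**
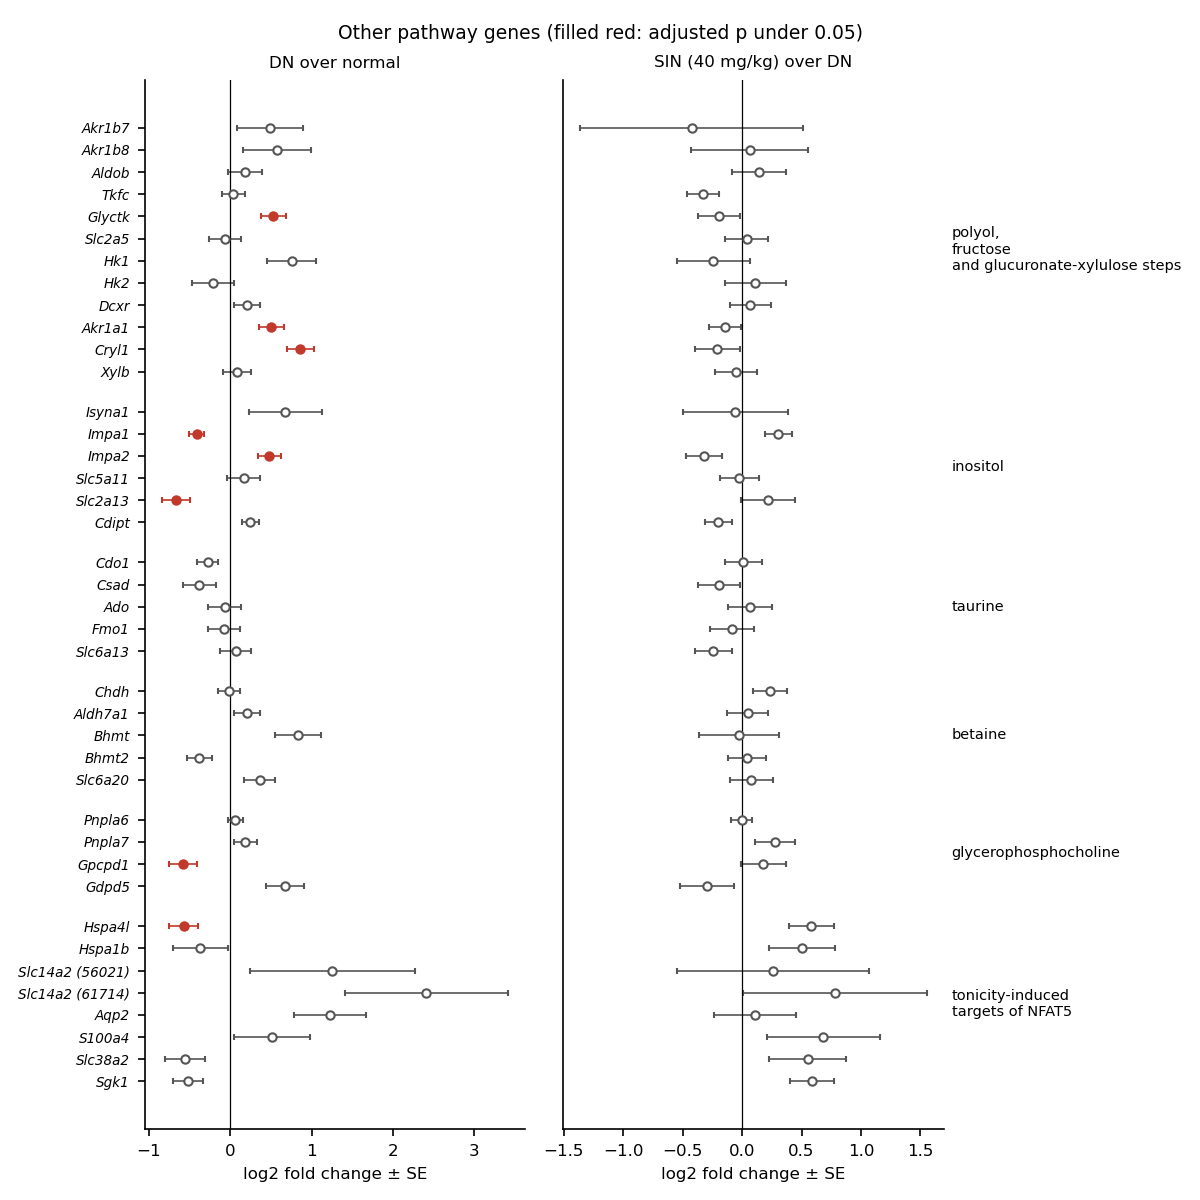
Fitted log2 fold changes (x axis, bars of 1 standard error) of the 40 rows of other pathway genes, for DN over normal on the left and SIN (40 mg/kg) over DN on the right, grouped by step; numbers beside Slc14a2 are the ends of its identifiers. In DN over normal 8 points are filled red for an adjusted p under 0.05, 4 on each side of 0, and on the right none is filled while all 8 rows for targets of NFAT5 lie above 0.

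The genes whose log2 CPM ran most like that of a member over the 16 rats were listed for description, from 13356 genes with a mean of at least 1 CPM. For Akr1b1 they were Gldn (r = 0.96), Anxa9 (r = 0.93) and Rab9b (r = 0.92), and for Slc6a12 they were Slc8b1 (r = 0.97), Mras (r = 0.94) and Smim5 (r = 0.93). For Khk they were Ush1c (r = 0.94), Tkfc (r = 0.93) and Espn (r = 0.92), and Tkfc encodes the kinase of the glyceraldehyde that fructose breakdown releases. Sord ran with Amt (r = 0.96) and Plbd1 (r = 0.93), and with a row named AABR07072593.1 (r = 0.94). Miox ran with Glmp (r = 0.92), Folr1 (r = 0.91) and Dap (r = 0.90), and Nfat5 with Usp53 (r = 0.88), Pdp1 (r = 0.88) and Mal2 (r = 0.87). Slc6a6 had the lowest likeness, with Depp1, Zfp1 and Gstp1 at r = 0.80.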

How the data were processed

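Renal mRNA of 16 rats was sequenced on an Illumina NovaSeq. Per the labels and the study's methods, the authors trimmed the reads, aligned them to Rnor_6.0 with TopHat, and name Bowtie, RSEM and edgeR among their tools. Deposited by the authors was one file with estimated counts per gene and rat, not normalized, beside gene lengths and group means. Of its nonzero values 74.3% were whole numbers, and all were rounded before testing. Khk had fractional counts in 16 of 16 rats, Slc6a12 in 11 and Nfat5 in 7, and Akr1b1, Sord, Miox and Slc6a6 in 0. Columns were joined to rats by library number, and 4 libraries that no sample record used here names were not used.

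Counts were tested with edgeR 4.0.16 (glmQLFit, glmQLFTest, TMM, filterByExpr) in R 4.3.3, in a separate two-sided fit for each of 6 comparisons, with Benjamini-Hochberg adjustment over all genes tested. Called means an adjusted p under 0.05. Calls that also reached a log2 change of 1, as in the study's methods, were counted too. All 7 members passed the filter in every comparison. CPM used TMM factors over the 16 rats, and log2 CPM added a prior count of 2. Alternatives were DESeq2 1.42.0, edgeR's exact test, RLE, fits with no filter or with a minimum of 10 counts in all rats compared, a joint fit of the 16 rats, a replicate block and each rat left out in turn. Leaving out both rats with raised urothelial markers was added after seeing the data. The quasi-likelihood step was tested on simulated data. Figures and summaries used Python 3.11.15.

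The members, the pathway and marker lists and the tests were chosen with earlier results of these data known. Besides the members, pathway genes with an adjusted p under 0.05 in any comparison were named, at most 8 by smallest adjusted p. Akr1a1 and Hspa4l were named beyond that limit, picked after their values were seen. Markers whose level bears on a member and the 3 genes most like each member by Pearson's r over the 16 rats were named too. The labels number the samples of a group and name no animal, so the p-values measure the spread between these samples.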

Additional observations from a re-analysis of the deposited data

Results flagged for a closer look

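Slc6a12 in SIN (40 mg/kg) replicate 1 was at 9.29 CPM, while the other 3 rats of that group were at 37.6 to 40.1 CPM. It was flagged because its gap to the next rat was 0.916 of the range of the group, and it was kept in the main fits and the means. Chance sets apart about 1 in 20 groups, and 28 groups of 4 rats were looked at, 7 members in 4 groups. The same rat was the lowest of its group for Akr1b1, at 63.0 CPM, and for Nfat5, at 46.7 CPM, and had the lowest sum of the collecting duct and inner medulla markers in its group, at 1126 CPM.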

How the results depend on the processing

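For DN over normal the count of members called went from 1 to 0 with the replicate block and with both rats with raised urothelial markers left out, and was 0 to 1 when each rat was left out in turn. For SIN (40 mg/kg) over DN it went from 0 to 1 with DESeq2, and between the doses from 0 to 1 with DESeq2 and with the exact test, in each case by Slc6a6. For SIN (20 mg/kg) over normal it went from 0 to 1 with DESeq2 and with the exact test, by Sord, and was 0 to 1 over the rats left out. For SIN (40 mg/kg) over normal it went from 0 to 1 with DESeq2, by Sord, and to 2 with the replicate block, by Sord (adjusted p = 0.042 in edgeR's test) and Slc6a12 (adjusted p = 0.00533 in edgeR's test). The cause of these moves was not tested.

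The replicate numbers gave no sign of pairing the rats. Same-numbered rats deviated from their group means with correlations of -0.25 to 0.283 over genes, and 4 of 24 correlated best with their own number. Such values cannot show that a weak pairing is absent. With the replicate block Sord in DN over normal had an adjusted p = 0.107 in edgeR's test at a log2 fold change of 0.54, as without it.

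Of 637 log2 fold changes of members under the alternatives, 592 kept their direction and side of the threshold, 9 passed it newly, 7 no longer passed it and 29 changed sign. In DN over normal Khk was -0.00017 with at least 10 counts in every rat and -0.015 with the replicate block. Slc6a12 in SIN (40 mg/kg) over DN was 0.24 with the replicate block. Over the rats left out, in DN over normal Akr1b1 was -0.53 to 0.32 and Khk -0.16 to 0.12. Likewise Sord was -0.11 to 0.027 in SIN (20 mg/kg) over DN, -0.15 to 0.035 in SIN (40 mg/kg) over DN and -0.13 to 0.070 between the doses, where Nfat5 was -0.028 to 0.22. In SIN (40 mg/kg) over DN Slc6a12 was -0.34 to 0.62, and over normal Miox was -0.11 to 0.070 and Nfat5 -0.38 to 0.062. Depth limits these members little, since the smallest estimated count among them was 51.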
